A study of Mus musculus with 20 samples.

Results

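The 38 genes described here encode the complement and coagulation proteins that the liver secretes into blood, and they were taken from a fixed list of symbols matched to probes by RefSeq accession. All 38 were measured, out of 12986 genes with a present probe. Hepatic mRNA came from 20 male Muta™Mouse animals (transgenic mouse strain 40.6, which carries a lacZ reporter, 25 weeks of age), 5 in each of 4 groups. Controls (replicates 1 to 5) received olive oil by daily oral gavage, and the exposed groups received benzo(a)pyrene (BaP) in the same olive oil at 25, 50 or 75 mg/kg/day, their replicates being numbered 6 to 10, 11 to 15 and 16 to 20. BaP is a polycyclic aromatic hydrocarbon of smoke and soot that liver enzymes convert to DNA-binding metabolites. Dosing lasted 28 days and livers were taken 3 days after the last dose, so every value describes the liver after that interval. Each liver RNA, labeled with Cyanine 5, was hybridized to 1 array beside a Cyanine 3-labeled universal mouse reference RNA pooled from mouse cell lines, and a level below is the log2 ratio of liver over reference. Of 13 hepatocyte markers 12 were present (Cps1 was not). Of 7 lung epithelium markers 3 were present, the surfactant genes Sftpa1 and Sftpd and Scgb1a1, while Sftpc, Sftpb, Scgb3a2 and Foxj1 were not. The mean log2 intensity over both channels was 10.2 to 16.3 for the present hepatocyte markers and 6.25 to 6.69 for the present lung markers. These counts and intensities bear on a label that names lungs, where the paper names liver.

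Complement is a chain of plasma proteases and pore-forming proteins that coats and lyses microbes. Lectins such as Mbl1 and Mbl2 or antibody start it, C3 is its centre, and Hc (complement C5), C6, C8 and C9 build the membrane pore. Coagulation is a parallel protease chain in which thrombin, made from prothrombin (F2), turns fibrinogen (Fga, Fgb, Fgg) into fibrin. Antithrombin (Serpinc1), protein C (Proc) and protein S (Pros1) restrain it, and plasmin, made from plasminogen (Plg), dissolves the clot. Hepatocytes are the main source of nearly all of these proteins, and many of them, fibrinogen and C3 among them, are raised in the acute phase response through interleukin 6.

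The promoters of the fibrinogen chains and of factor VII (F7) are shown because these genes are described in detail below. None of them was called at any dose. Each is 120 bases that end at the annotated transcript start, 5′ to 3′ (RefSeq, GRCm38.p6), and capitals mark letters that match a liver factor motif searched on both strands.
Fga, chr3:83026033-83026152, plus strand: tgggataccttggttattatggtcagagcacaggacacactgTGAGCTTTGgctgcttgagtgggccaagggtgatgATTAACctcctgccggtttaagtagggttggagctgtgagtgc
Fgb, chr3:83049864-83049983, minus strand: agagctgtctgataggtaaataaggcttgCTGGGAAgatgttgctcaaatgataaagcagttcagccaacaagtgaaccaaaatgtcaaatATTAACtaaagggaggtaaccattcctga
Fgg, chr3:83007604-83007723, plus strand: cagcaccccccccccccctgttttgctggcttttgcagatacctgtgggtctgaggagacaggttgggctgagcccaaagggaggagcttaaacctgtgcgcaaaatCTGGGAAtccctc
F7, chr8:13025914-13026033, plus strand: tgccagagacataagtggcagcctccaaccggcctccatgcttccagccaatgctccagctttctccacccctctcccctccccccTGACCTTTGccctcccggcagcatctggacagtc
ATTAAC in Fga and Fgb is the reverse complement of GTTAAT, letters bound by the hepatocyte factor HNF1. CTGGGAA in Fgb and Fgg is the core of an interleukin 6 response element. TGAGCTTTG in Fga and TGACCTTTG in F7 match TGNNCTTTG, a form of the HNF4 site. RefSeq promoters were found for 30 of the 38 genes, 31 promoters in all, and over 250 bases upstream of the start GTTAAT was held by 8 of the 31 (25.8%), against 6.43% of all 32851 promoters. TGNNCTTTG was held by 4 (12.9% against 5.49%) and CTGGGAA by 4 (12.9% against 9.1%). GCGTG, the core letters bound by the aryl hydrocarbon receptor that BaP activates, was held by 4 (12.9% against 28.2%). These are matches of letters and not sites.

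No complement or coagulation gene was called at any dose. A call required an adjusted p under 0.05 by limma and a fold change over 1.5. Of all 27346 present probes 0% were called at 25 and at 50 mg/kg/day and 0.135% (37 probes) at 75 mg/kg/day. The smallest adjusted p of a member was 0.64 at 25, 0.72 at 50 and 0.22 at 75 mg/kg/day. The estimates nevertheless lay nearly all on the same side. All 38 members were estimated higher than control at 25 mg/kg/day and 36 were at each of the other doses, with a median log2 fold change of 0.30, 0.26 and 0.37. Over all probes that median was 0.00088, -0.0032 and 0.0025. An unadjusted p under 0.05 with a higher level was given by 10 members at 25, 6 at 50 and 15 at 75 mg/kg/day, against 4.18%, 3.75% and 6.52% of all probes, and by no member with a lower level. The 3 comparisons share their control arrays, and the members moved together from array to array, so these counts are not 38 separate pieces of evidence. In bulk liver RNA a change in the number of cells of a type and a change in RNA per cell cannot be told apart.

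**Figure D1:**
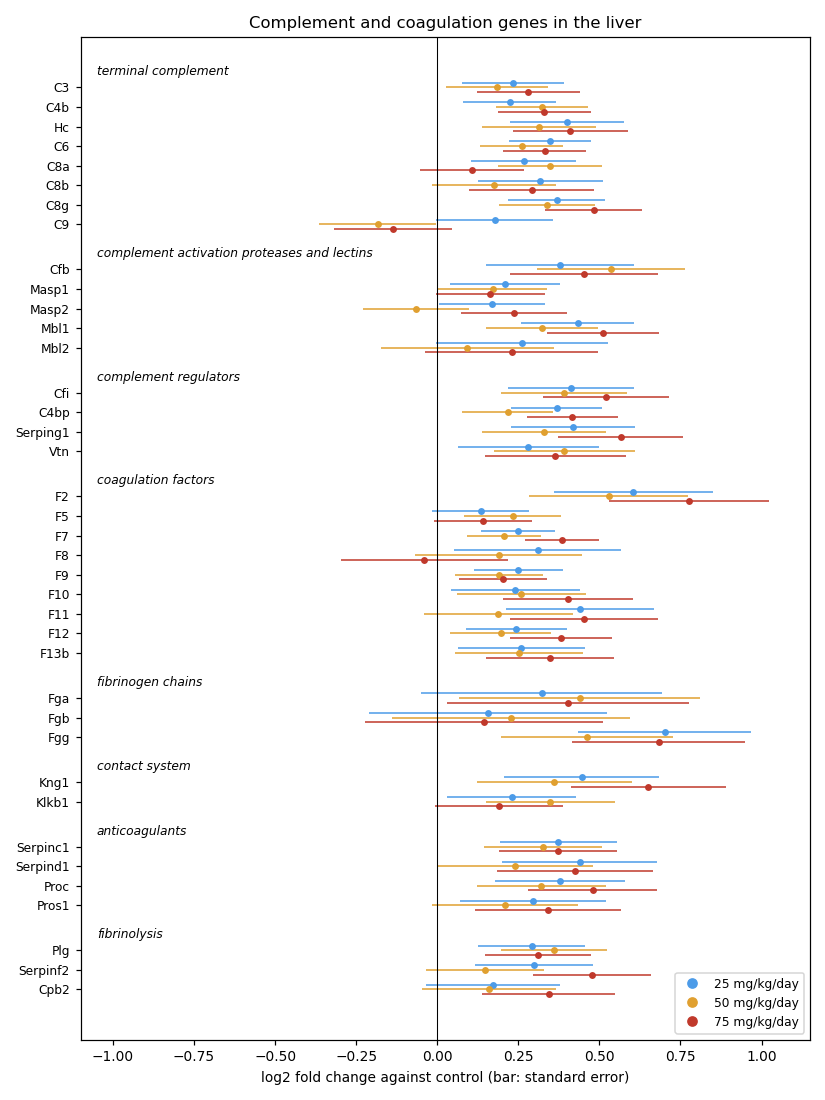
Log2 fold change of each of the 38 genes against control (points) with its standard error (bars), by role, at 25, 50 and 75 mg/kg/day (5 arrays a group). Nearly all points lie right of 0 and under 0.8, and C9, Masp2 and F8 hold the negative estimates.

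In the membrane pore group, with C3 and C4b, 8 of 8 genes were estimated higher at 25 and 7 of 8 at the other doses, and 0 passed the test. C8g, a chain of the C8 protein, had control levels of 6.24, 5.56, 5.73, 5.07 and 5.68 and levels of 6.14, 5.92, 6.25, 6.25 and 6.13 at 75 mg/kg/day. Control replicate 1 lay among the exposed arrays, and the other control arrays lay below all of them. The C8g difference was 0.48 ± 0.15 (SE, adjusted p = 0.24 by limma). C9, which completes the pore, was among the few genes with lower estimates, with control levels of 6.72, 5.99, 6.24, 6.07 and 6.60 and levels of 5.84, 6.38, 6.10, 5.89 and 6.72 at 75 mg/kg/day. The groups overlapped over most of their range. The C9 difference was -0.14 ± 0.18 at 75 and -0.18 ± 0.18 at 50 mg/kg/day (adjusted p = 0.82 and 0.88 by limma). Its direction turned with the processing, to 0.87 at 75 and 0.16 at 50 mg/kg/day with the scanner's processed signals and to 0.11 at 75 with a normexp offset of 0, and its reference signal was well above background on 8 of 20 arrays. The central component C3 has a probe printed at 10 spots of every array, which shows how well an array measures it. The SD between its spots within an array had a median of 0.048 (range 0.020 to 0.12), while the SD between arrays of a group was 0.26, so the spread of C3 lay between samples and arrays, not between spots.

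Among the lectins and activating proteases, Cfb, the protease of the alternative pathway, had the largest estimate of any member at 50 mg/kg/day. Its control levels were 5.16, 4.56, 4.64, 3.78 and 4.56, and those at 50 mg/kg/day were 5.03, 5.19, 5.25, 5.11 and 4.81. Control replicate 1 lay within the exposed range and control replicate 4 far under it. The difference was 0.54 ± 0.23 (adjusted p = 0.72 by limma). Masp2, a protease that the lectins activate, had levels of 4.59, 3.78, 4.03, 3.83 and 4.50 in controls and 4.24, 3.94, 3.53, 4.27 and 4.43 at 50 mg/kg/day, a difference of -0.06 ± 0.16 (adjusted p = 0.96 by limma). A dimmer Masp2 probe of the same accession gave a different picture at the highest dose. Its control levels were 5.16, 4.83, 4.89, 4.73 and 4.80, and its levels at 75 mg/kg/day were 5.30, 5.21, 5.43, 5.21 and 5.37, all above the controls, with a difference of 0.42 ± 0.11 (adjusted p = 0.18 by limma) against 0.24 ± 0.16 for the brighter probe. Another, still dimmer Masp2 probe, of a different RefSeq transcript, differed by 0.18 ± 0.34 at 75 mg/kg/day (adjusted p = 0.89 by limma). Its exposed and control arrays overlapped, and at 50 mg/kg/day it differed by -0.22 ± 0.34. The mannose-binding lectin Mbl1 was estimated 0.51 ± 0.17 higher at 75 mg/kg/day (adjusted p = 0.28 by limma). Mbl2, its relative, was among the 3 members with the largest spread (pooled SD 0.46) and its levels ran from 5.67 to 7.48 in controls alone.

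All 4 complement regulators were estimated higher at every dose, with medians of 0.39, 0.36 and 0.47. Serping1, the C1 inhibitor that also restrains the contact system, was estimated 0.57 ± 0.19 higher at 75 mg/kg/day, Cfi, which cuts C3b, 0.52 ± 0.19 and C4bp, which helps it on C4b, 0.42 ± 0.14. The adjusted p was 0.28, 0.33 and 0.28 by limma. None of the 4 passed the test.

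F7, which starts coagulation with tissue factor, was the 1 member of 38 whose exposed and control arrays did not overlap, at 75 mg/kg/day. Over all probes such a separation was found for 1.52% at that dose, and for 1.22% at 25 and 0.823% at 50 mg/kg/day, where 0 members were separated. Control F7 levels were 4.85, 4.40, 4.77, 4.43 and 4.71, and levels at 75 mg/kg/day were 5.02, 4.98, 5.02, 4.94 and 5.12. The 5 exposed arrays lay close together above the highest control. At 50 mg/kg/day 4 arrays lay between 4.86 and 4.99 while replicate 13 lay at 4.45. The F7 difference at 75 mg/kg/day was 0.38 ± 0.11, or 1.31-fold, with an adjusted p of 0.22 by limma, and F7 had the smallest pooled SD of the members (0.17). The count of separated members at that dose rose to 12 without control replicate 1. Fewer control arrays make separation easier for any probe, and the share over all probes was not computed in that setting. The count was 0 with a normexp offset of 0 or with the scanner's processed signals, and in the liver channel alone Mbl2 was separated and F7 was not.

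Prothrombin (F2) had the largest estimate at the highest dose. Its levels were 7.07, 5.58, 6.12, 5.73 and 6.51 in controls and 6.89, 6.83, 7.27, 6.61 and 7.29 at 75 mg/kg/day. The lowest exposed array lay above 4 of the 5 controls, and control replicate 1 lay inside the exposed range. The difference was 0.78 ± 0.25, or 1.71-fold, at 75 mg/kg/day, 0.61 ± 0.25 at 25 and 0.53 ± 0.25 at 50 (adjusted p = 0.25, 0.64 and 0.73 by limma). F8, the cofactor of F9, is made largely by endothelial cells and was estimated at -0.04 ± 0.26 at 75 mg/kg/day (adjusted p = 0.97 by limma). Its levels ran from 1.21 to 2.09 in controls and from 1.00 to 2.21 at 75 mg/kg/day, so the groups covered the same range.

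Kininogen (Kng1), the contact system protein that carries bradykinin, had control levels of 6.66, 5.30, 6.01, 5.14 and 6.05 and levels of 6.33, 6.14, 6.34, 6.73 and 6.88 at 75 mg/kg/day. Again control replicate 1 lay among the exposed arrays and the other 4 controls lay under all of them. The difference was 0.65 ± 0.24 at 75 and 0.45 ± 0.24 at 25 mg/kg/day (adjusted p = 0.33 and 0.65 by limma). A dimmer Kng1 probe gave smaller estimates, 0.42 ± 0.15 at 75 and 0.30 ± 0.15 at 25 mg/kg/day (adjusted p = 0.32 and 0.65 by limma). The 4 anticoagulants had medians of 0.38, 0.28 and 0.40, and the 3 fibrinolysis genes 0.29, 0.16 and 0.34, with 0 called in either group. Heparin cofactor II (Serpind1) showed the reach of control replicate 1 most plainly: that array read 5.94, above every exposed array (4.61 to 5.28), while the other controls read 4.03 to 4.79.

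**Figure D2:**
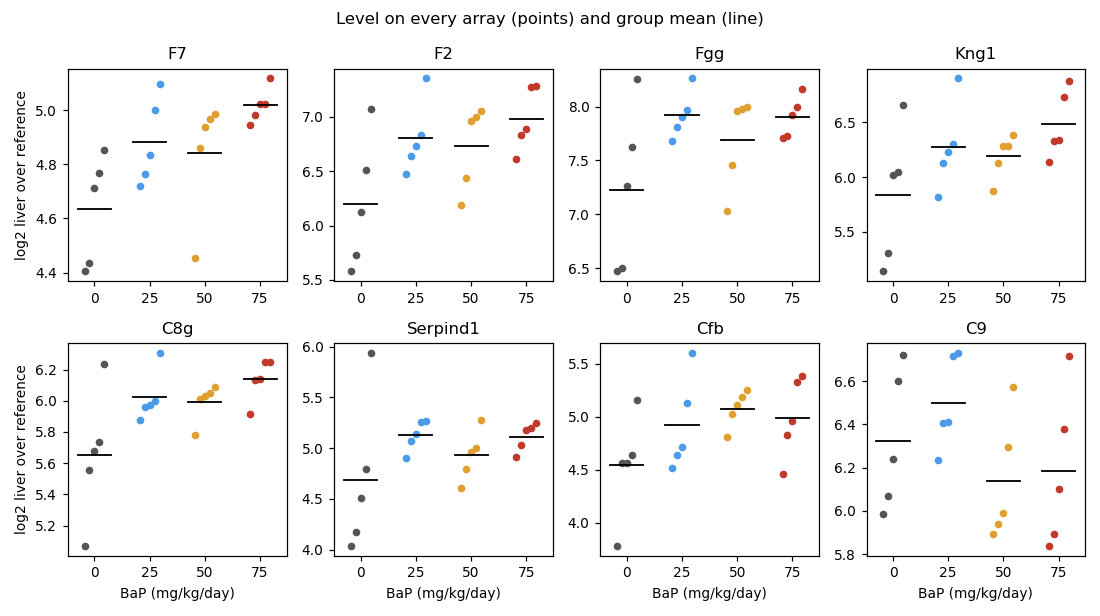
Log2 liver over reference level on each array (points) and the group mean (line) for 8 members, by dose. F7 at 75 mg/kg/day is the member without overlap with controls, and at that dose in F2, Fgg, Kng1, C8g and Serpind1 control replicate 1 is the 1 control array that reaches into or above the exposed range.

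The order of the doses was not a steady one. A linear trend passed for 0.157% of all probes (43) and for 0 members, with a smallest adjusted p of 0.34 by limma for F7. The fitted slope was positive for 36 of the 38 members, against 13866 of 27346 probes. An unadjusted trend p under 0.05 by limma, in either direction, was given by 14 members, against 2347 probes. The members moved together, so these are not separate pieces of evidence. Between exposed groups 0% of probes were called from 25 to 50 and from 50 to 75 mg/kg/day, and 0.0549% between 25 and 75, with 0 members in each. The median member difference was -0.05 from 25 to 50 and 0.12 from 50 to 75 mg/kg/day. The estimate against control was thus already about as large at 25 as at 50 mg/kg/day.

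The members moved together from array to array. The median deviation of the 38 genes from their control mean was 0.60, -0.23, -0.07, -0.40 and 0.11 on the 5 control arrays. On the exposed arrays it ran from 0.02 to 0.53. All 15 exposed arrays lay above the control mean and 14 lay above 4 of the 5 controls, but 0 lay above control replicate 1. The pooled SD between arrays of a group had a median of 0.32 over the members, against 0.22 over all probes, and 36 of the 38 members lay above that 0.22. The 12 hepatocyte markers moved in the same way, with medians of 0.35, 0.32 and 0.44 at the 3 doses (12 of 12 higher at each, 0 called) and an array range of -0.60 to 0.67 in controls, 0.09 to 0.57 at 25, 0.02 to 0.58 at 50 and 0.20 to 0.50 at 75 mg/kg/day. The 99th percentile of the log2 ratio over all probes also moved with it, from 5.07 to 5.77 in controls, 5.41 to 5.77 at 25, 5.28 to 5.72 at 50 and 5.50 to 5.79 at 75 mg/kg/day. The median member lay above that percentile on 19 of the 20 arrays. The part of the hepatocyte markers and of the array-wide range in the members' shift was not tested.

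**Figure D3:**
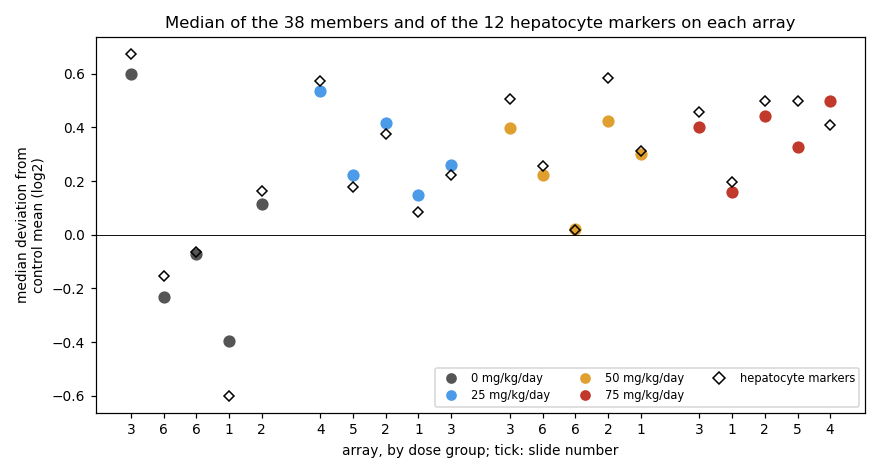
Median deviation from the control mean (log2) over the 38 genes (filled circles) and over 12 hepatocyte markers (open diamonds) on each of the 20 arrays, with the slide number under each. Both sets move together, and control replicate 1 (slide 3) lies above and control replicate 4 (slide 1) below all exposed arrays.

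When the ratio was separated into its channels, more of the shift lay in the reference than in the liver at 25 and 75 mg/kg/day. At 50 mg/kg/day the channels shared it almost evenly. Each channel was rebuilt from the loess-normalized ratio and the mean intensity of the spot, so the loess correction is shared between the channels. Each was then centred on its own median over all probes. The liver signal of the members was, as a median over the genes, 0.10, 0.12 and 0.05 log2 higher than in controls at 25, 50 and 75 mg/kg/day, with 26, 34 and 23 of the 38 genes higher. The reference signal at the same spots was 0.22, 0.14 and 0.27 lower, with 35, 34 and 35 of the 38 lower. The reference is 1 RNA pool that received no BaP. Over all probes the medians were -0.03, -0.0045 and -0.05 in the liver channel and -0.03 in the reference channel at each dose. For F7 at 75 mg/kg/day the liver channel differed by 0.03 and the reference by -0.33. For F2 the values were 0.05 and -0.70, for Fgg -0.06 and -0.72, and for Kng1 -0.01 and -0.63. At 50 mg/kg/day the liver and reference values were 0.24 and 0.03 for F7 and 0.29 and -0.25 for F2. They were 0.10 and -0.37 for Fgg and 0.11 and -0.26 for Kng1. C9 at 75 mg/kg/day was lower in both channels, by -0.31 in the liver and -0.14 in the reference. With the liver channel analyzed alone after quantile normalization, the median member difference was 0.02, 0.07 and 0.04. Of the 38 members 23, 29 and 25 were higher at 25, 50 and 75 mg/kg/day, and F7 at 75 mg/kg/day was -0.05. The scanner's own processed signals split alike, with array medians averaging -0.03, 0.12 and 0.01 for the liver and -0.33, -0.15 and -0.38 for the reference.

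**Figure D4:**
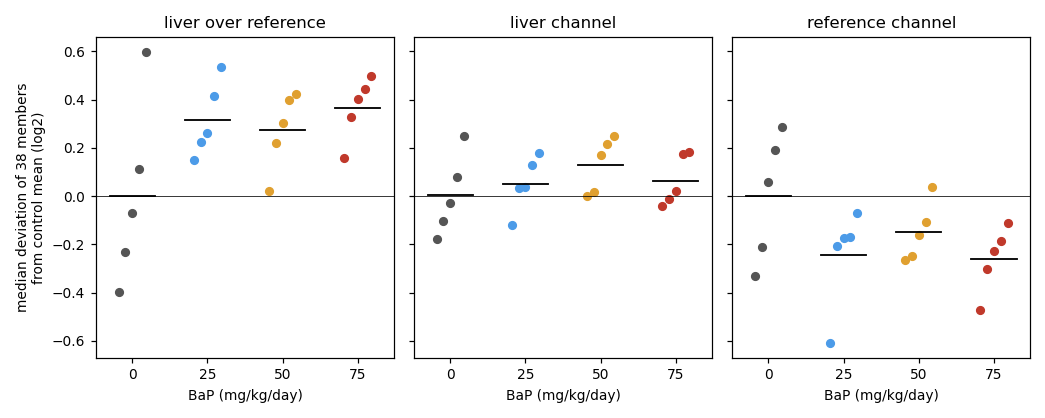
Median deviation of the 38 genes from the control mean (log2) on each array (points) and group mean (line), for the ratio, the liver channel and the reference channel. Exposed groups average 0.32, 0.27 and 0.37 in the ratio, 0.05, 0.13 and 0.06 in the liver channel and -0.25, -0.15 and -0.26 in the reference channel.

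The arrays were spread over 6 slides, and slides 1 to 3 hold every group. Position on a slide followed dose, with controls usually at position 1 and 25, 50 and 75 mg/kg/day at 2, 3 and 4. The exceptions were control replicate 2 at position 2 and replicate 13 at position 4. Dose and position therefore cannot be told apart within a slide. On slide 1, which has control replicate 4, the median member difference from control was 0.56, 0.74 and 0.65 at 25, 50 and 75 mg/kg/day. On slide 2 it was 0.28, 0.30 and 0.33. On slide 3, which has control replicate 1, it was -0.28, -0.14 and -0.18, with 4 of the 38 genes higher at each dose. Slide 6 holds control and 50 mg/kg/day arrays and gave 0.24. The direction was therefore not the same on every slide. On slides 1 to 3 the control array, the exposed arrays and the slide itself cannot be told apart. F7 at 75 mg/kg/day was 0.55, 0.31 and 0.17 higher on slides 1, 2 and 3, while F2 was 1.11, 0.76 and -0.18. With slide as a block the median member difference was 0.19, 0.26 and 0.25 and 0 members were called. Slide accounted for a median of 60.4% of a member's variance and dose group for 23.3%, against 40.2% and 15.4% over all probes, although 6 slides against 4 groups take a larger share of any values.

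The 3 fibrinogen chains are secreted as 1 protein, and differences between the chains were not tested. Fgg was estimated 0.70 ± 0.27 higher at 25, 0.46 ± 0.27 at 50 and 0.68 ± 0.27 at 75 mg/kg/day (adjusted p = 0.64, 0.78 and 0.34 by limma), from control levels of 8.26, 6.50, 7.26, 6.47 and 7.62 and levels of 7.92, 7.71, 8.00, 7.73 and 8.16 at 75 mg/kg/day. Fga was estimated 0.32, 0.44 and 0.40 higher (SE 0.37) and Fgb 0.16, 0.23 and 0.14 higher (SE 0.37) at the 3 doses, and with pooled SDs of 0.65 and 0.64 they were the 2 most variable members. Their levels followed the slide. On the 6 arrays of slides 5 and 6 Fgb averaged 6.63 against 5.58 on the 14 arrays of slides 1 to 4, and every array of the first set, control or exposed, lay above every array of the second. Fga averaged 7.14 against 6.13. Fgg ran the other way, at 7.33 against 7.84, and so did 31 of the 38 members. Slide held 88.3% of the variance of Fgb and 77.0% of that of Fga. Fgb was the only member without overlap between these sets, against 1.01% of all probes, and the sets were chosen after the values were seen. The reference channel differed by -0.96 for Fga, -0.63 for Fgb and 0.56 for Fgg between the sets, and the liver channel by 0.08, 0.44 and 0.07. ATTAAC stands in the promoters of Fga and Fgb and not in the 250 bases before Fgg, while CTGGGAA stands in those of Fgb and Fgg. Any link between these letters and the differences between slides was not tested.

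**Figure D5:**
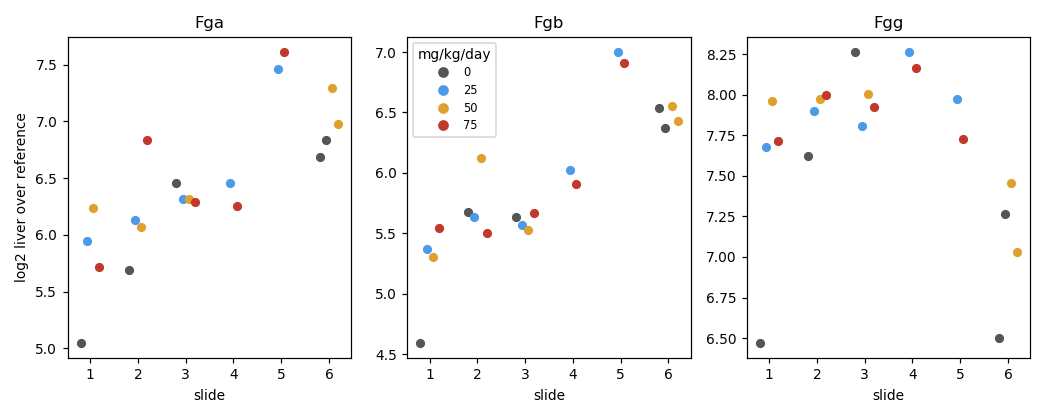
Log2 liver over reference level of the 3 fibrinogen chains on each array, by slide, with dose group in color. Fga and Fgb are higher on slides 5 and 6 than on slides 1 to 4 in control and exposed animals alike, and Fgg is not.

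The rest of the pathway gave no calls. Of 20 other complement genes 14 were estimated higher and 6 lower at 75 mg/kg/day (median 0.09), and of 23 other coagulation genes 13 were higher and 10 lower (median 0.11), with 0 called at any dose. Within the complement list the largest changes were those of Cd55, which protects host cells from complement, at 0.69 ± 0.24 and Clu, an inhibitor of the membrane pore, at 0.41 ± 0.22. Within the coagulation list they were those of the thrombin receptor F2r at 0.59 ± 0.34 and Pzp, a plasma protease inhibitor, at 0.59 ± 0.24. The adjusted p was 0.29, 0.50, 0.53 and 0.36 by limma. Hgfac of the coagulation list was estimated at 0.50 ± 0.12 and Lman1 at -0.52 ± 0.20 (adjusted p = 0.12 and 0.33 by limma). Hgfac was the 1 gene of these 23 without overlap with controls, at 50 and at 75 mg/kg/day, against 0.823% and 1.52% of all probes. Of 18 acute phase genes 15 were estimated higher at each dose (medians 0.25, 0.24 and 0.35) and 0 were called, with Crp at 0.70 ± 0.44 and Lcn2 at -0.66 ± 0.71 at 75 mg/kg/day (adjusted p = 0.57 and 0.77 by limma). Of 17 liver transcription factors and interleukin 6 signaling genes 0 were called. Stat3, which carries that signal, was estimated at 0.45 ± 0.40 and the nuclear receptor Nr5a2 at 0.42 ± 0.15 (adjusted p = 0.71 and 0.33 by limma). Nr5a2 was the 1 gene of these 17 without overlap with controls at 75 mg/kg/day, against 1.52% of all probes.

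Markers of other liver cells did not share 1 pattern. At 75 mg/kg/day the sinusoidal endothelium list had a median of 0.35 (9 of 9 present genes higher, array range 0.22 to 0.59 against -0.31 to 0.20 in controls) with Lyve1 called, and the Kupffer cell list 0.07 (7 of 8 present genes higher, array range -0.24 to 0.52 against -0.32 to 0.23) with Marco called. The stellate cell and fibroblast list had a median of 0.34 (6 of 9 higher), the bile duct list -0.17 (3 of 5 lower) and the B and T cell list 0.00027 (3 of 6 higher). The platelet and megakaryocyte list had a median of 0.22 (4 of 6 higher) and the neutrophil list, with 3 of 7 markers present, 0.39. In these 5 lists 0 genes were called. The lung epithelium list, with 3 of 7 markers present, had a median of 0.05 and 0 called. Its Sftpd was estimated 1.19 ± 0.25 higher (adjusted p = 0.069 by limma). All exposed Sftpd arrays lay above the controls, a separation found for 1.52% of all probes in either direction. The part of any of these cell types in the members' values was not tested. Control replicate 4 had 67.5% of liver spots well above background against 51.9 to 62.4% on the other arrays. Replicate 13, the low array of F7 and C8g at 50 mg/kg/day, had 387 outlier spots against 78 to 219 on the other arrays, and its part in those values was not tested. On all arrays 0 spots were saturated. All 38 members were well above background in the liver on all 20 arrays, and 34 were so in the reference (the others were C9, Klkb1, F5 and F8).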

How the data were processed

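Median spot and local background intensities of the liver (Cyanine 5) and reference (Cyanine 3) channels were deposited by the authors without normalization, from Feature Extraction (10.1.1.1 per the file headers). Deposited processed intensities were background subtracted and dye normalized by that software, and the log2 ratios deposited by the authors were LOWESS normalized. Other deposited columns were the software's marks for spots well above background, saturated or outlying. Coordinates of the files are of build mm8 and were not used here.

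Background was removed from the medians by normexp (offset 50), followed by loess within each array, with control spots and outliers given no weight and outliers then left out. Ratios were averaged over the spots of each of 41174 probes. Probes above the trimmed mean plus 3 trimmed SDs (trim 5%) of 153 negative control spots in 4 of 5 arrays of a group were present (27346). Symbols came from RefSeq accessions (18195 present probes, 12986 genes), and a gene is given by its probe of highest mean intensity, which need not speak for its other transcripts. Loess assumes that most probes do not change. Each dose was contrasted with control in 1 limma model of 20 arrays, two-sided, with Benjamini-Hochberg adjustment over all present probes, and dose was also fitted as a number. The fit was tested on simulated data. The label for the lowest dose, 25 mg/kg, was used where the series text differs. An unnamed sample that the study removed could not be told from the rest, so all 20 arrays were kept. Labels do not say more of the animals' litters or cages. The number of arrays limits precision. R 4.3.3, limma 3.58.1, data.table (version 1.17.8), Python 3.11.15 and matplotlib 3.10.9 were used.

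The members, gene lists and tests were chosen with earlier results of these data known. Named members are those called or without overlap at any dose, the 3 largest rises and falls at each dose and the 3 of largest pooled SD, and of other lists the genes called and the 2 of largest change at the highest dose. C8g, Mbl1, Serping1, Cfi, C4bp, Serpind1, Hgfac and Lman1, and the motifs and promoters shown, were chosen after values were seen. Alternatives changed the background correction, signals, presence filter, probe choice, slide block, arrays and fold change limit, and 3 settings (without slides 5 and 6, slides 1 to 3 with a block, and without control replicates 1 and 4) were added after seeing the data.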

Additional observations from a re-analysis of the deposited data

Results flagged for a closer look

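Of 156 groups of 5 arrays examined (38 genes and the member median in 4 groups), 6 had an array set apart from its group by more than Dixon's limit, where chance alone gives about 1 in 20. C3 at 50 mg/kg/day had its highest array (replicate 14) at 5.11 and the next at 4.55, a gap of 0.797 of the range. C8g had its highest array at 25 mg/kg/day (replicate 6, 6.31 against 6.00, 0.722 of the range) and its lowest at 50 mg/kg/day (replicate 13, 5.78 against 6.01, 0.741). F7 at 50 mg/kg/day had its lowest array at replicate 13, with 4.45 against 4.86 (0.765). F12, the contact factor of coagulation, had its lowest array at 75 mg/kg/day at 5.42 against 5.80 (0.899, replicate 17). Fgb at 75 mg/kg/day had its highest array at 6.91 against 5.91 (0.711, replicate 19), which is the array of that group on slide 5.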

How the results depend on the processing

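No paired analysis was possible because the groups share no replicate numbers, and the matching that slides allow is given by the slide block and by the differences within slides. Neither separates dose from position on the slide. Members called stayed at 0 at 25 and 50 mg/kg/day under every alternative, and at 75 mg/kg/day ranged from 0 to 2 when 1 array was left out, the 2 being C8g and Serpind1 without control replicate 1 (adjusted p = 0.0465 by limma). The median member difference stayed above 0 under every alternative. With 1 array left out it ran from 0.20 to 0.45 at 25, 0.16 to 0.40 at 50 and 0.25 to 0.51 at 75 mg/kg/day, lowest without control replicate 4 and highest without control replicate 1. In the liver channel alone it was 0.0242 at 25 and 0.0435 at 75 mg/kg/day. Members without overlap ranged from 0 to 6, 0 to 5 and 1 to 12 over the left-out arrays, each highest without control replicate 1. The share of all probes without overlap was not computed under the alternatives, and fewer arrays make separation easier for any probe. Without control replicates 1 and 4 there were 6, 5 and 12, at the usual slide position 1 at 50, on slides 1 to 3 with the block 2 at 50 and 2 at 75, without slides 5 and 6 2 at 50, with all probes averaged 2 at 75, and with offset 0 or scanner signals 0 at 75 mg/kg/day.

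Called probes at 25 mg/kg/day were 0 to 2 with 1 array left out, 2 without control replicates 1 and 4 and 1 without slides 5 and 6. At 50 mg/kg/day they were 0 to 1, and 2 with offset 0, 4 with scanner signals, 3 with the slide block, 1 on slides 1 to 3 with the block and 4 without control replicates 1 and 4. At 75 mg/kg/day they were 25 to 72 (72 without replicate 19), and 62 with scanner signals, 58 with the slide block, 24 at the usual slide position, 5 with control and that dose only, 81 on slides 1 to 3 with the block and 179 without slides 5 and 6. The trend was called for 28 to 59 probes with 1 array left out, 76 in the liver channel alone and 95 with the slide block, and for 0 members except Mbl2 (1 member, adjusted p = 0.031 by limma) in the liver channel alone.

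In the liver channel alone F2 at 25 (-0.0153), Kng1 at 25 (-0.27) and F7 at 75 mg/kg/day (-0.0481) changed sign. C9 became 0.16 at 50 and 0.87 at 75 mg/kg/day with scanner signals and 0.11 at 75 with offset 0. F8 at 75 mg/kg/day became 0.0535 in the authors' ratios and 0.22 without control replicates 1 and 4, and ran from -0.19 to 0.11 with 1 array left out. Masp2 at 50 mg/kg/day became 0.00545 without slides 5 and 6 and on slides 1 to 3 with the block, and ran from -0.16 to 0.0734. The cause was not tested. C9 was well above background in the reference on 8 of 20 arrays, so its ratio rests on dim signals.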
